A study of Mus musculus with 12 samples.

Results

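The genes described here are the EGF-family ligands Hbegf, Areg, Ereg, Tgfa, Nrg1 and Btc together with Errfi1, a feedback inhibitor of the receptors that these ligands bind. The 7 genes were chosen by name, with earlier results of these data known, so counts of calls among them are a description. They were matched by symbol among the 49671 genes of the count files, and 6 of them were among the 18668 genes tested. Tgfa was not tested, because it had 0 counts in 11 of the 12 libraries and 1 count in the other.

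Cells of the NIH 3T3 line, which are immortalized fibroblasts from mouse embryos, were transfected with siRNA in 4 groups of 3 RNA-seq libraries. The control cells received the AllStars negative control siRNA and the Lap2-depleted cells an siRNA against Tmpo, the gene of Lap2, that targets its anchored and its nucleoplasmic isoforms alike. With each siRNA, 1 group was kept in 0.3% FBS (serum-starved) and 1 was given 15% FBS for 45 min after starvation (serum-stimulated). The comparisons ask how the ligand and feedback genes responded to serum, and whether that response or their starting level differed in Lap2-depleted cells. All 4 groups had thus been transfected and starved, and knockdown by a single siRNA sequence cannot be told apart from other effects of that sequence. The sources do not say that the triplicates were separate cultures, so p-values measure the spread between these libraries, which may be technical.

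EGF-family ligands are made as membrane-anchored precursors, which ADAM proteases cut to release the growth factor. The released ligands bind the ERBB receptor tyrosine kinases: Hbegf, Areg, Ereg, Tgfa and Btc bind Egfr, Hbegf, Ereg and Btc also bind Erbb4, and Nrg1, a neuregulin, binds Erbb3 and Erbb4. Errfi1, also called Mig6, binds the kinase domain of Egfr and its relatives and blocks it, and in many cells its transcript is raised by the same mitogens that activate these receptors. Hbegf, Areg, Ereg and Errfi1 are known as early response genes of fibroblasts and epithelial cells.

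Total counts per library were 18026298 to 26265253. Tmpo fell with Lap2 siRNA from a mean of 2822 to 1083 normalized counts in 0.3% FBS and from 3175 to 706 in 15% FBS. Here and below a normalized count is the read count of a gene brought to a common library size with TMM factors. All 10 fibroblast markers were detected, and their summed level was 899566 to 1019790 normalized counts in the 6 control libraries and 526073 to 741022 in the 6 Lap2-depleted libraries. The markers did not all move alike. With Lap2 siRNA in 0.3% FBS, 7 of the 10 were called lower and 2, Fn1 and S100a4, higher (edgeR, adjusted p under 0.05). The shares over all tested genes were 18.6% and 17.8%. In 15% FBS, 8 were called lower and 0 higher, against 12.1% and 11.4% of all tested genes. The summed level moved with Lap2 siRNA beside every Lap2 comparison below, and its part in them was not tested. Markers of epithelial cells (2 of 7 at 0 in all libraries, Krt18 and Cldn4) summed to at most 37.3 normalized counts in any library, those of macrophages to 87.4 and those of endothelial cells to 37.6. Of these, Csf1r was higher with Lap2 siRNA in 0.3% FBS (log2FC 1.46, edgeR adjusted p = 0.00852) and Tek lower in 15% FBS (-1.52, adjusted p = 0.0404), and their part in the results was not tested. In bulk RNA, fewer cells that express a gene and less of its RNA per cell cannot be told apart.

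The ligand genes lie on 4 mouse chromosomes, and 3 of the members are neighbours. On the mm10 assembly, Ereg (ENSMUSG00000029377, chr5:91074622-91093646), Areg (ENSMUSG00000029378, chr5:91139599-91148432) and Btc (ENSMUSG00000082361, chr5:91357261-91402994) follow each other, with Ereg and Areg on the plus strand and Btc on the minus strand. Together with Epgn, the gene of the ligand epigen, they form a stretch of 375531 bp that holds 7 genes of the count files, of which 4 are EGF-family ligands. Hbegf (ENSMUSG00000024486) lies on the minus strand at chr18:36504929-36515805, Tgfa (ENSMUSG00000029999) on the plus strand at chr6:86195223-86275719, Nrg1 (ENSMUSG00000062991) on the minus strand at chr8:31814551-32884029, and Errfi1 (ENSMUSG00000028967) on the plus strand at chr4:150853919-150868892.

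Promoters of the members were searched for short words, and the 2 that held the full cAMP response element TGACGTCA, of Areg and Errfi1, are shown. The presence of the element in both thus follows from that choice. RefSeq promoters (GRCm38.p6, 250 bases before to 50 bases after a start site) were at hand for 4 of the 7 members, Areg, Btc, Tgfa and Errfi1, with 5 promoters in all. Hbegf, Ereg and Nrg1 had no entry. The full cAMP response element TGACGTCA, searched on both strands, was in 2 of the 5, beginning 61 bases before the start of Areg and 51 bases before the downstream start of Errfi1. The capitals below mark this element in the 250 bases before each start, which are chr5:91139349-91139598 for Areg and chr4:150854820-150855069 for Errfi1, both on the plus strand. The Errfi1 stretch lies within the annotated span of the gene, downstream of its first annotated base (chr4:150853919).

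Areg: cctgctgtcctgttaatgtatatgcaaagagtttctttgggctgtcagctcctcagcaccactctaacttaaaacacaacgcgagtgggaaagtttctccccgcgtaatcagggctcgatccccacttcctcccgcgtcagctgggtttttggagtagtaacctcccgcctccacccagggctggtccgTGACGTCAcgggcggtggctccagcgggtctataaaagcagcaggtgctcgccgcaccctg

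Errfi1: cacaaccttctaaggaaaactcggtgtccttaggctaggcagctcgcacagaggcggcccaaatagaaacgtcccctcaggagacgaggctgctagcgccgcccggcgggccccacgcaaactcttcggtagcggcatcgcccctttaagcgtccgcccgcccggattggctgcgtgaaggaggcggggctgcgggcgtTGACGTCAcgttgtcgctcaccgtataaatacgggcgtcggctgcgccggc

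In both sequences a TATAAA word stands between the element and the start, 31 bases before the start in Areg and 28 bases before it in Errfi1. Of the 32851 promoters of the same length, 1.79% held TGACGTCA, 13.62% held TATAAA (a word added after the sequences were seen), and 0.1705% held both. The Btc promoter held only the shorter word TGACG, which also occurs within the full element and which 20.81% of all promoters held. Neither the Tgfa promoter nor the upstream Errfi1 promoter held any of the words searched. The AP-1 word TGANTCA (7.808% of all promoters), the EGR word GCGTGGGCG (0.6119%), the ETS word CCGGAA (14.9%) and the CArG box, which SRF binds (1.629%), were in none of the 5 windows. These are matches of letters, and no binding was measured at them here.

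Serum stimulation for 45 min raised the transcripts of Hbegf, Ereg, Areg and Errfi1 by about an order of magnitude or more with either siRNA, while those of Nrg1 and Btc moved far less. In control siRNA treated cells, 6 of the 6 tested members were called higher (edgeR, adjusted p under 0.05) and 0 lower, against 15.6% of all tested genes called higher and 13.9% called lower. The median log2 fold change (log2FC) of the 6 was 5.70, against -0.01 over all tested genes. In Lap2-depleted cells 5 of the 6 were called higher and 0 lower, against 18.3% and 14.9% of all tested genes, and the median was 3.82 against 0.00. These genes were chosen with earlier results of these data known, so the shares and medians of all genes are no independent yardstick for them. Areg, which is among the 6, entered the test only through the counts of its serum-stimulated libraries.

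**Figure D1:**
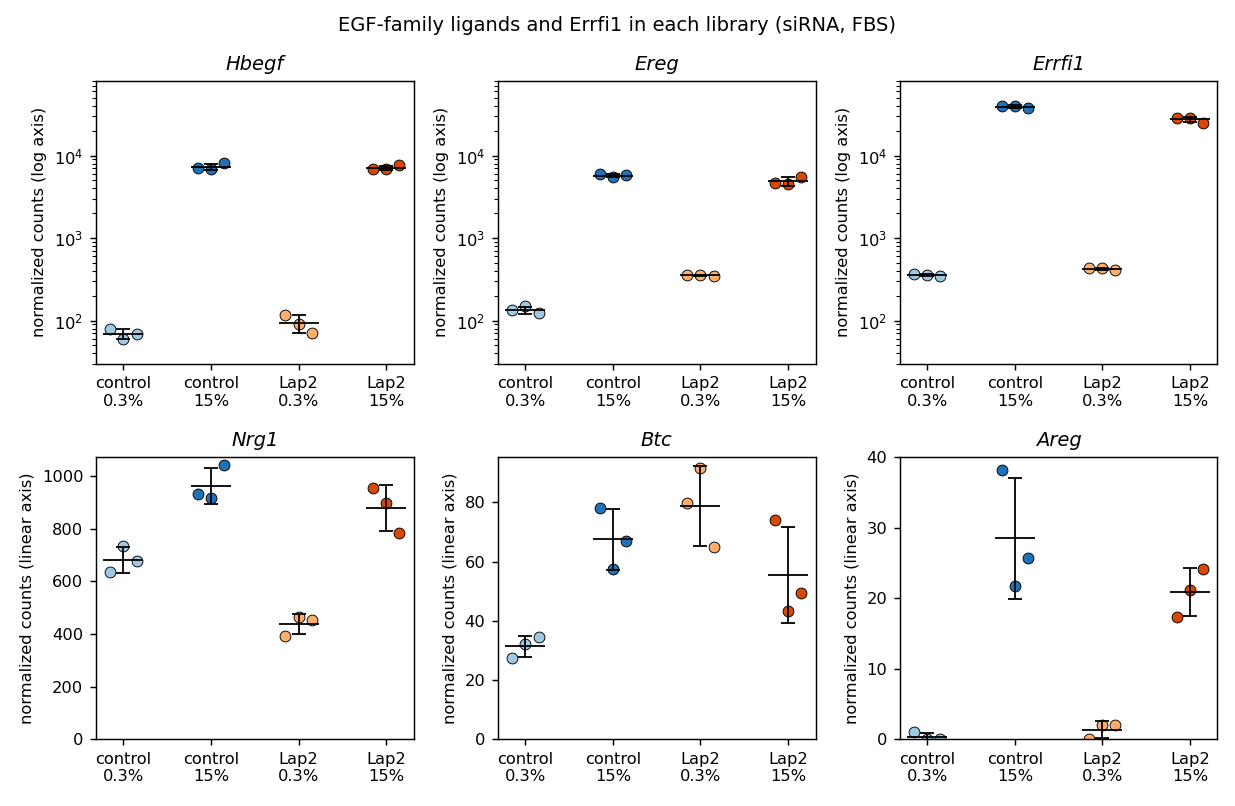
Normalized counts of the 6 tested members in each of the 12 libraries (points), with the mean and SD of the 3 libraries of a group (bars). The x axis gives siRNA and FBS, the upper panels have a log axis and the lower panels a linear axis from 0. Hbegf, Ereg and Errfi1 lie between 4471 and 40286 normalized counts in the 6 serum-stimulated libraries, and Btc is lowest in the 3 serum-starved control libraries.

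Hbegf encodes a heparin-binding ligand of the family and was low in starved cells. Its normalized counts were 79.5, 59.8 and 68.0 in the serum-starved control libraries and 7006, 6957 and 8109 after serum. In Lap2-depleted cells they were 117, 90.5 and 71.1 before and 6967, 6802 and 7617 after serum. The libraries with and without serum were thus separated by a wide gap with both siRNAs. The log2FC for serum was 6.74 (SE 0.11, edgeR adjusted p = 9.1e-31), the 14th highest of 18668 genes, with control siRNA, and 6.25 (SE 0.11, adjusted p = 3.22e-30), the 7th highest, with Lap2 siRNA.

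Ereg encodes epiregulin, a broad-acting ligand of the family. Its normalized counts were 134, 148 and 122 in serum-starved control cells and 5906, 5457 and 5731 after serum. In Lap2-depleted cells the starved libraries held 355, 357 and 349, above every starved control library, and the serum-stimulated libraries held 4636, 4471 and 5537. The log2FC for serum was 5.39 (SE 0.09, edgeR adjusted p = 1.6e-30) with control siRNA, a 42.0-fold increase, and 3.79 (SE 0.08, adjusted p = 1.87e-27) with Lap2 siRNA, a 13.8-fold increase. Ereg overlaps the antisense gene Gm19610 by 152 bp, and the strand setting of the read counting is not given in the sources used here. Gm19610 averaged 46.3 normalized counts over the 12 libraries, and the number of reads in the shared stretch was not measured.

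Areg, the gene of amphiregulin, responded in the same direction from almost no reads. Its raw counts were 1, 0 and 0 in serum-starved control cells and 43, 22 and 23 after serum, and 0, 2 and 2 before and 15, 20 and 25 after serum in Lap2-depleted cells. Over the 3 libraries of each group, 88 counts after serum stood against 1 before it with control siRNA, a ratio of 89.9 after scaling for depth (exact 95% counting interval 15.7 to 3591). With Lap2 siRNA 60 stood against 4, a ratio of 15.9 (5.91 to 60.4). The fitted log2FC was 6.01 (SE 0.82, edgeR adjusted p = 9.3e-08) and 3.86 (SE 0.67, adjusted p = 1.17e-05). These intervals cover counting error only, and the starved level of Areg is too low for the size of its response to be set firmly. Genes counted more than 1 time in 3 libraries or more were tested, and Areg met this only through its serum-stimulated libraries. Its calls for serum thus follow in part from that filter.

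Nrg1, the neuregulin, was the member ligand with the highest level per exon length in starved control cells. It had 636, 733 and 677 normalized counts in starved and 932, 916 and 1042 in serum-stimulated control cells, groups that did not overlap. In Lap2-depleted cells it had 394, 466 and 455 before and 954, 898 and 783 after serum. The serum log2FC was 0.50 (SE 0.09, edgeR adjusted p = 2.39e-05) with control siRNA and 1.00 (SE 0.09, adjusted p = 7.31e-11) with Lap2 siRNA. The Nrg1 locus overlaps Gm26578, which averaged 23.7 normalized counts, and Gm22140, which averaged 0.

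Btc encodes betacellulin. Its normalized counts were 27.5, 32.1 and 34.5 in starved and 78.1, 57.4 and 66.9 in serum-stimulated control cells, and the groups did not overlap. In Lap2-depleted cells they were 79.9, 91.5 and 64.9 in 0.3% FBS and 73.9, 43.5 and 49.3 in 15% FBS, and here the groups overlapped. The serum log2FC was 1.11 (SE 0.24, edgeR adjusted p = 3.22e-04) with control siRNA. With Lap2 siRNA it was -0.51 (95% interval -0.95 to -0.07, adjusted p = 0.069), which was not called. That decrease passed the threshold without the third serum-starved Lap2 library (-0.65, adjusted p = 0.032), without the first serum-stimulated Lap2 library (-0.76, adjusted p = 0.015), and with libraries scaled to total counts (-0.74, adjusted p = 0.00564) or to the upper quartile (-0.62, adjusted p = 0.0247).

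Errfi1, the inhibitor, rose strongly with serum with either siRNA. It had 365, 357 and 351 normalized counts in starved and 40286, 39556 and 37239 in serum-stimulated control cells. In Lap2-depleted cells it had 429, 436 and 412 before and 28552, 28443 and 25082 after serum, so that none of the 4 groups overlapped with another. The log2FC for serum was 6.77 (SE 0.08, edgeR adjusted p = 4.67e-35), a 109-fold increase that ranked 13th of 18668, with control siRNA. With Lap2 siRNA it was 6.01 (SE 0.08, adjusted p = 6.85e-34), a 64.3-fold increase that ranked 12th.

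**Figure D2:**
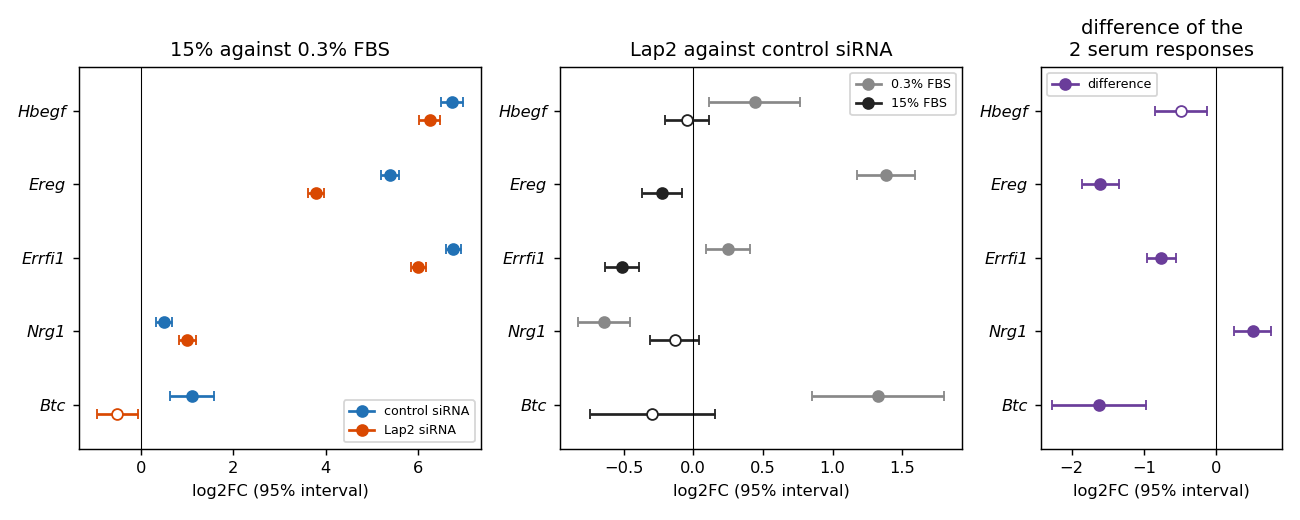
log2FC with its 95% interval for 5 members in the serum comparisons (left), the Lap2 siRNA comparisons (middle) and the difference of the serum responses, Lap2 siRNA minus control siRNA (right). Filled points have an edgeR adjusted p under 0.05 and open points do not, the x axes differ between panels, and Areg is left out because its starved groups held at most 4 counts. Ereg and Btc have the most negative differences, -1.61 and -1.62, and that of Nrg1 is 0.51.

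Ereg and Btc were higher and Nrg1 was lower with Lap2 siRNA before serum was given. In 0.3% FBS, 4 of the 6 tested members were called higher and 1 lower in Lap2-depleted than in control cells, against 17.8% of all tested genes called higher and 18.6% called lower. Ereg was higher by a log2FC of 1.38 (SE 0.10, edgeR adjusted p = 9.08e-13) and Btc by 1.33 (SE 0.23, adjusted p = 1.86e-05), and for neither did the groups overlap. Nrg1 was lower by -0.64 (SE 0.09, adjusted p = 7.18e-07), again without overlap. Errfi1 was higher by only 0.25 (SE 0.08, adjusted p = 0.0105), from a mean of 358 ± 7.28 (SD, 3 libraries) to 426 ± 12.2 normalized counts, and with the 6 libraries of these groups fitted alone it was not called (0.24, adjusted p = 0.0733). Areg, at 1 count over the control and 4 over the Lap2-depleted libraries, was not called (adjusted p = 0.33).

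The Hbegf call in 0.3% FBS rested on single libraries. Its log2FC was 0.44 (SE 0.16, edgeR adjusted p = 0.0284) while the groups overlapped, with 1 Lap2-depleted library at 71.1 and 1 control library at 79.5 normalized counts. It was lost without the second (0.36, adjusted p = 0.133) or the third (0.45, adjusted p = 0.0583) serum-starved control library, without the first serum-starved Lap2 library (0.25, adjusted p = 0.268), and with the groups fitted alone (0.42, adjusted p = 0.117).

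In serum-stimulated cells Errfi1 was lower with Lap2 siRNA, the opposite of its direction in starved cells, and most ligands were not called. In 15% FBS, 0 of the 6 tested members were called higher and 2 lower with Lap2 siRNA, against 11.4% and 12.1% of all tested genes. Errfi1 was lower by -0.51 (SE 0.06, edgeR adjusted p = 5.61e-08), from a mean of 39027 ± 1591 to 27360 ± 1973 normalized counts, and thus decreased by 29.9%. Ereg was lower by -0.22 (SE 0.07, adjusted p = 0.0174), from 5698 ± 226 to 4881 ± 574, but the groups overlapped. The Ereg call was lost without the first (-0.21, adjusted p = 0.071) or the third (-0.21, adjusted p = 0.0533) serum-stimulated control library, without the first (-0.19, adjusted p = 0.104) or second (-0.16, adjusted p = 0.159) serum-stimulated Lap2 library, and with scaling to total counts (-0.14, adjusted p = 0.161).

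The other ligands were not called in 15% FBS. For Hbegf the log2FC was -0.05 with a 95% interval of -0.20 to 0.11 (edgeR adjusted p = 0.759), for Nrg1 -0.13 with an interval of -0.31 to 0.04 (adjusted p = 0.306), and for Btc -0.29 with an interval of -0.74 to 0.16 (adjusted p = 0.397). The 88 and 60 Areg counts gave a ratio of 0.728 with a counting interval of 0.515 to 1.02. A difference of the size of that of Errfi1 lies outside the interval of Hbegf and of Nrg1 and inside that of Btc.

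The difference between the serum responses, tested as an interaction, was called for 4 of the 6 members. Nrg1 alone was called higher, meaning a larger increase with Lap2 siRNA, and 3 were called lower, against 7.09% and 6.51% of all tested genes. It was 0.51 (SE 0.13, edgeR adjusted p = 0.00481) for Nrg1, -1.61 (SE 0.13, adjusted p = 3.29e-11) for Ereg, -1.62 (SE 0.32, adjusted p = 4.41e-04) for Btc and -0.76 (SE 0.10, adjusted p = 8.9e-07) for Errfi1. For Ereg, Btc and Nrg1 the log2FC between the siRNAs was further from 0 in 0.3% than in 15% FBS, whereas for Errfi1 it went from 0.25 to -0.51. The difference for Hbegf was -0.49 (95% interval -0.85 to -0.12, adjusted p = 0.0654) and was not called. It passed the threshold without the first serum-starved control library (-0.63, adjusted p = 0.0362), the third serum-starved Lap2 library (-0.67, adjusted p = 0.0078) or the third serum-stimulated Lap2 library (-0.54, adjusted p = 0.0381), and with DESeq2 (-0.51, adjusted p = 0.0191). For Areg it was -2.15 (adjusted p = 0.352). The siRNA comparisons and the serum comparisons are made from the same 4 groups and share libraries.

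Summed over the 11 EGF-family ligands of the mouse and expressed per exon length, the ligand transcripts rose from 6.02 ± 0.275 to 144 ± 7.65 CPM per kb with serum in control cells and from 8.28 ± 0.312 to 132 ± 10.5 in Lap2-depleted cells (mean ± SD, 3 libraries each). The make-up of that sum changed as well. In starved control cells Nrg1 was 51.9% of it, Ereg 25.7%, Hbegf 11.3% and Btc 5.47%. In starved Lap2-depleted cells Ereg was 49.1% (47.6% to 50.1% over the libraries), Nrg1 24.3% (21.97% to 26.06%), Hbegf 11.0% and Btc 9.95%, so by this measure Ereg took the first place that Nrg1 held in control cells. That place depends on the merged exon length of all annotated transcripts, 10351 bp for Nrg1 and 4128 bp for Ereg. In normalized counts Nrg1 stayed above Ereg in starved Lap2-depleted cells, with means of 438 and 354. After serum, Hbegf and Ereg made up nearly all of the sum with either siRNA, at 50.02% and 45.46% in control and 53.15% and 42.49% in Lap2-depleted cells, and Nrg1 was 3.06% and 3.08%.

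**Figure D3:**
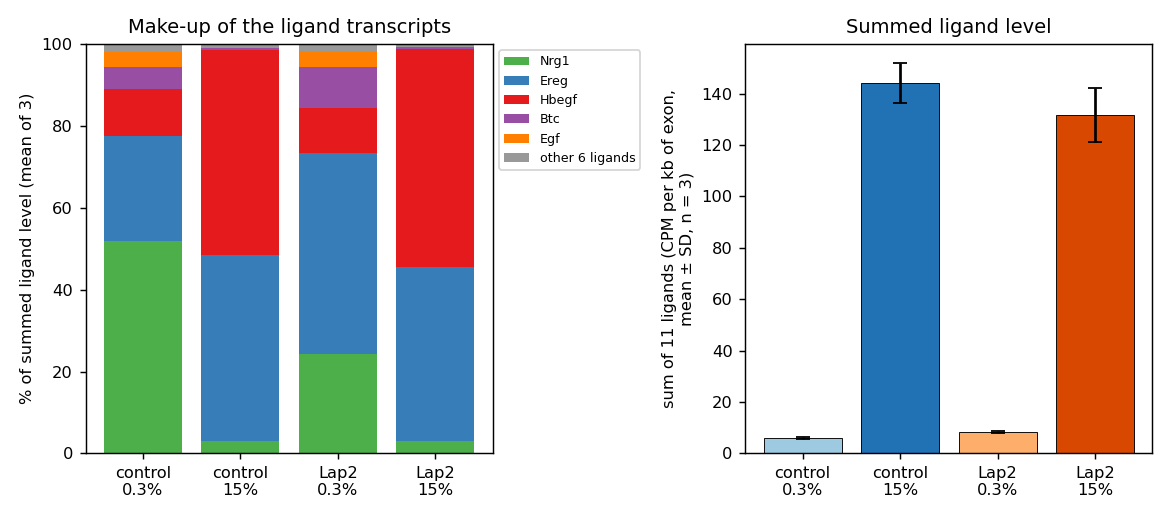
Share of each ligand in the summed level of 11 EGF-family ligands (left, mean of 3 libraries, in percent of CPM per kb of merged exon) and that sum (right, mean ± SD of 3 libraries) by siRNA and FBS. Nrg1 leads in starved control cells with 51.9%, Ereg in starved Lap2-depleted cells with 49.1%, and Hbegf and Ereg together fill nearly the whole bar after serum. Without division by exon length, Nrg1 (438 normalized counts) stands above Ereg (354) in starved Lap2-depleted cells.

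The levels per exon length put the members in order within each condition, and that order depends on the length used. In normalized counts, for instance, Nrg1 (682) stood above Errfi1 (358) in starved control cells. In starved control cells the means were 4.73 CPM per kb for Errfi1, 3.12 for Nrg1, 1.55 for Ereg, 0.677 for Hbegf, 0.329 for Btc and 0.0128 for Areg. After serum in control cells they were 517 for Errfi1, 72.2 for Hbegf, 65.4 for Ereg, 4.41 for Nrg1, 1.11 for Areg and 0.707 for Btc. In starved Lap2-depleted cells they were 5.63 for Errfi1, 4.06 for Ereg, 2.01 for Nrg1, 0.909 ± 0.224 for Hbegf, 0.826 ± 0.140 for Btc and 0.0539 for Areg, and Hbegf and Btc overlapped. After serum in Lap2-depleted cells they were 362 for Errfi1, 69.9 for Hbegf, 56.1 for Ereg, 4.02 for Nrg1, 0.815 ± 0.134 for Areg and 0.583 ± 0.170 for Btc, and Areg and Btc overlapped. Hbegf and Ereg were close neighbours in the order after serum, with a ratio per length of 1.01 to 1.21 over the 3 control and 1.17 to 1.30 over the 3 Lap2-depleted libraries after serum, against 0.345 to 0.505 and 0.174 to 0.280 before it. Errfi1 stayed at 4.44 to 8.06 times the level of Hbegf per length in all 12 libraries.

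Of the 5 other ligands, none was called in any comparison with TMM scaling and all 12 libraries. Egf averaged 54.1 to 76.9 normalized counts in the 4 groups. By total counts it was called lower for serum with Lap2 siRNA (-0.70, edgeR adjusted p = 0.0139) and higher for Lap2 siRNA in 0.3% FBS (0.61, adjusted p = 0.0327), and each of these calls also appeared on leaving out 1 library, the second serum-stimulated Lap2 library for the first and the second serum-starved control library for the other. Epgn and Nrg4 averaged under 5 normalized counts in every group, and Nrg2 and Nrg3, which held 1 and 0 counts in all, were not tested.

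No receptor rose with serum as Hbegf, Ereg, Areg and Errfi1 did. Egfr, the receptor of most member ligands, averaged 647, 558, 464 and 616 normalized counts in starved control, serum-stimulated control, starved Lap2-depleted and serum-stimulated Lap2-depleted cells. Erbb2, the ligandless partner receptor, averaged 2206, 1820, 1245 and 1140, and Erbb3, a neuregulin receptor with a weak kinase, 44.5, 25.7, 13.6 and 16.1. With Lap2 siRNA in 0.3% FBS all 3 tested receptors were called lower (Egfr -0.48, Erbb2 -0.83 and Erbb3 -1.70 log2FC, edgeR adjusted p = 1.74e-05, 1.56e-11 and 6.08e-05), also with scaling to total counts, and in 15% FBS Erbb2 was (-0.68, adjusted p = 4.84e-09). By total counts Egfr was called higher with Lap2 siRNA in 15% FBS (0.23, adjusted p = 0.0403). Serum lowered Erbb2 in control cells (-0.28, adjusted p = 0.00172). In Lap2-depleted cells Erbb2 was not called for serum (-0.13, adjusted p = 0.187). There it was called lower by total counts (-0.36, adjusted p = 1.1e-04) and by the upper quartile (-0.24, adjusted p = 0.00798). The calls of Egfr (-0.21, adjusted p = 0.0482) and Erbb3 (-0.79, adjusted p = 0.0407) for serum in control cells were lost with DESeq2 (adjusted p = 0.054 and 0.0698). The Egfr call was also lost in 10 of the 12 fits that left out a library, all but those without the first serum-starved or the third serum-stimulated Lap2 library (adjusted p up to 0.223), and the Erbb3 call in 5, those without the second or the third serum-starved or any serum-stimulated control library (up to 0.157). In Lap2-depleted cells serum raised Egfr (0.41, adjusted p = 2.12e-04, but 0.18 with adjusted p = 0.0926 under scaling to total counts), and the responses differed (interaction 0.62, adjusted p = 2.63e-04). Erbb4 held too few counts to be tested.

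Because Errfi1 acts on the receptor, its level was set against that of Egfr per exon length. In starved control cells there were 1.75 ± 0.101 Errfi1 transcripts per Egfr transcript by this measure, and 221 ± 1.70 after serum. In Lap2-depleted cells the ratio was 2.91 ± 0.254 before and 141 ± 10.6 after serum. The ranges of the 4 groups did not overlap, with 1.67 to 1.86, 220 to 223, 2.62 to 3.10 and 130 to 151. The size of the ratio depends on the exon lengths used. In normalized counts Errfi1 averaged 358 and Egfr 647 in starved control cells, and 426 and 464 in starved Lap2-depleted cells.

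Among the 7 genes of ligand processing, the main sheddases of these ligands passed the test in no comparison with TMM scaling and all 12 libraries. Adam17, which releases Hbegf, Areg, Ereg and Tgfa, averaged 1747 to 1936 normalized counts in the 4 groups, and neither it nor Adam10, which releases Btc and Egf, was called. By total counts each fell with serum in Lap2-depleted cells (-0.24 and -0.33), and Adam10 also in control cells (-0.22, adjusted p = 0.00484), and by the upper quartile Adam10 fell in Lap2-depleted cells (-0.21, adjusted p = 0.00728). Without the first serum-starved Lap2 library, Adam10 was called lower there and Adam17 was called lower for Lap2 siRNA in 15% FBS. Adam12 was lower with Lap2 siRNA in both media (-1.25, edgeR adjusted p = 1.19e-08, and -0.75, adjusted p = 5.44e-05), as was Rhbdf2, an inactive rhomboid that escorts Adam17 (-0.96, adjusted p = 2.65e-07, and -1.15, adjusted p = 1.77e-07), and Bace1, which cuts Nrg1 (-0.70, adjusted p = 4.01e-09, and -0.28, adjusted p = 0.00487). Serum raised 3 genes of this list and lowered 1 in control cells, and raised 2 and lowered 1 in Lap2-depleted cells, the lowered one being Rhbdf2 both times, but by total counts 1 rose and 2 fell in control and 2 rose and 4 fell in Lap2-depleted cells.

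Of the 5 transducers that dock at the receptors, Gab1 was called lower with Lap2 siRNA in both media (-0.83, edgeR adjusted p = 2.56e-08, and -0.72, adjusted p = 1.32e-06). Grb2 was called lower in 0.3% FBS (-0.25, adjusted p = 0.00257, and by total counts -0.14, adjusted p = 0.0946) but not in 15% FBS (-0.17, adjusted p = 0.0621), where DESeq2 (-0.18, adjusted p = 0.0188) and 5 of the 12 fits that left out a library called it. Serum raised Shc1 and Ptpn11 by 0.18 to 0.39 with each siRNA. With scaling to total counts the increases in control cells were lost (-0.02 for Shc1 and 0.01 for Ptpn11), as was that of Shc1 in Lap2-depleted cells (0.10, adjusted p = 0.156). Serum lowered Sos1 in control cells (-0.26, adjusted p = 0.0173). It raised Grb2 in Lap2-depleted cells (0.21, adjusted p = 0.0154), but not by total counts (-0.02, adjusted p = 0.808). Ptpn11 was called lower with Lap2 siRNA in 0.3% FBS (-0.23, adjusted p = 0.00365), but not by total counts (-0.12, adjusted p = 0.145).

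Negative regulators other than Errfi1 showed no increase of its kind. Cbl, a ubiquitin ligase that sends Egfr for degradation, rose with serum by 0.77 (edgeR adjusted p = 1.42e-08) in control and by 0.58 (adjusted p = 2.24e-06) in Lap2-depleted cells, and of the 7 regulators 4 were called higher and 1 lower in control and 3 higher and 0 lower in Lap2-depleted cells (2 and 1, and 3 and 3, with scaling to total counts). The lowered one was Lrig3, a transmembrane member of the Lrig family, with 1124, 1188 and 1178 normalized counts in starved and 373, 372 and 332 in serum-stimulated control cells. It had 528, 574 and 543 in starved and 587, 457 and 425 in serum-stimulated Lap2-depleted cells. Its serum log2FC was -1.69 (adjusted p = 3.01e-16) with control and -0.17 (adjusted p = 0.198) with Lap2 siRNA, where it was called lower by total counts (-0.40, adjusted p = 9.52e-04) and by the upper quartile (-0.28, adjusted p = 0.023), and the interaction was 1.53 (adjusted p = 5.4e-10). Cblb and Lrig1 were lower with Lap2 siRNA in both media, by -0.45 and -0.78 for Cblb and by -0.30 and -0.39 for Lrig1.

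Over all 28 other genes of the pathway, of which 25 were tested, serum was followed by 9 calls higher and 6 lower in control cells and by 9 higher and 1 lower in Lap2-depleted cells. Lap2 siRNA was followed by 2 higher and 13 lower in 0.3% FBS and by 1 higher and 9 lower in 15% FBS, and the interaction by 4 higher and 1 lower. The serum counts turned with scaling to total counts, to 3 higher and 8 lower in control and 6 higher and 11 lower in Lap2-depleted cells, while those for Lap2 siRNA became 4 higher and 11 lower in 0.3% and 3 higher and 8 lower in 15% FBS. The interaction had 4 higher and 3 lower with total counts, the upper quartile and DESeq2 alike, Cblb and Lrig2 being added. Of all tested genes, 17.8% were called higher and 18.6% lower for Lap2 siRNA in 0.3% FBS, 11.4% and 12.1% in 15% FBS, 7.09% and 6.51% for the interaction, 15.6% and 13.9% for serum in control cells, and 18.3% and 14.9% for serum in Lap2-depleted cells. The median log2FC of the 25 was -0.25 for Lap2 siRNA in 0.3% FBS, against 0.01 over all tested genes and 0.88 over the 6 members. Of the 55 calls with TMM scaling, 43 stood whichever library was left out. The other 12 were those of Egfr, Erbb3, Adam12, Sos1 and Ptpn11 for serum in control cells, of Grb2 for serum in Lap2-depleted cells, of Rhbdf1, Ptpn11 and Cbl for Lap2 siRNA in 0.3% FBS, of Adam9 for Lap2 siRNA in 15% FBS, and of Adam9 and Bace1 for the interaction.

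**Figure D4:**
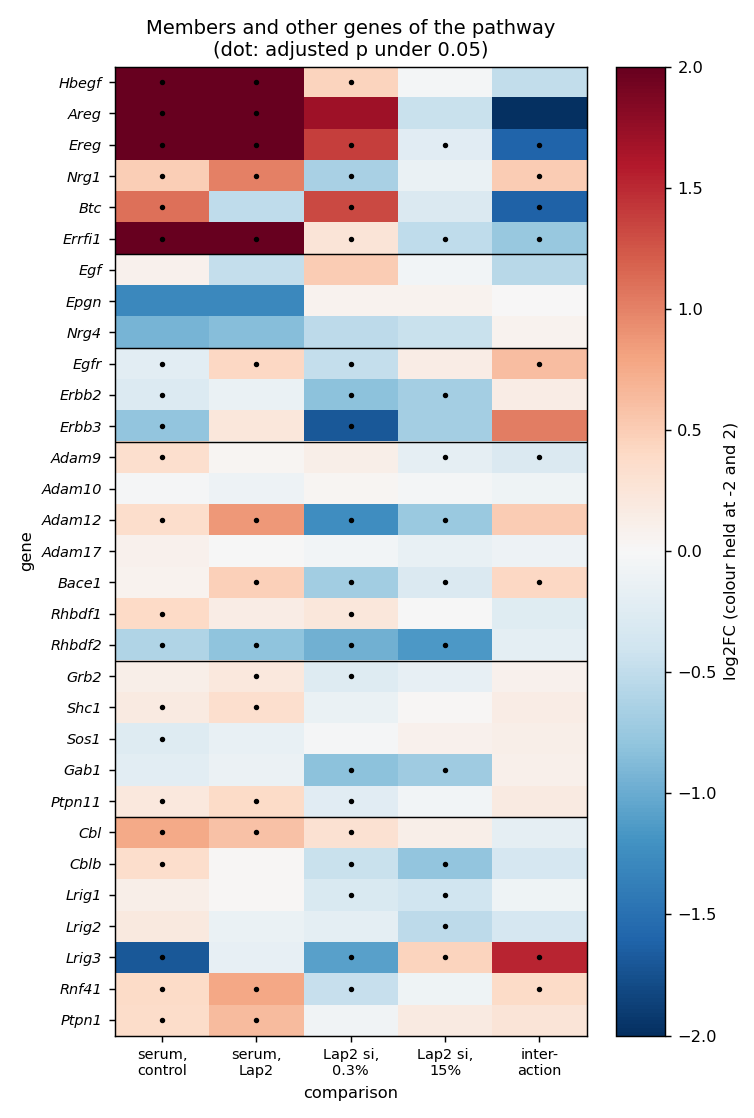
log2FC of the 6 tested members (top block) and 25 other genes of the pathway (blocks from top: other ligands, receptors, ligand processing, transducers, negative regulators) in 5 comparisons, with colour from blue (lower) to red (higher) held at -2 and 2 and a dot for an edgeR adjusted p under 0.05. The strong red of the serum columns is found in Hbegf, Areg, Ereg and Errfi1, and the Lap2 siRNA column for 0.3% FBS has 13 called decreases and 2 called increases below the members (11 and 4 with scaling to total counts).

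The members that are neighbours on chromosome 5 did not respond alike. With control siRNA the serum log2FC was 5.39 for Ereg, 6.01 for Areg and 1.11 for Btc, while Epgn, on the other side of Ereg, averaged 2.54 normalized counts before and 0.921 after serum and was not called. The antisense gene Gm19610 rose from 22.1 ± 8.09 to 70.92 ± 21.03 normalized counts (1.65, edgeR adjusted p = 9.34e-05) with control siRNA and from 29.8 ± 12.3 to 62.46 ± 21.98 (1.06, adjusted p = 0.00793) with Lap2 siRNA. The second of these calls was lost without the second serum-starved or the third serum-stimulated Lap2 library (adjusted p up to 0.0747). Because Gm19610 overlaps Ereg and the strand setting is not known here, its reads and those of Ereg cannot be told apart in the shared stretch. Mthfd2l, a mitochondrial folate enzyme gene next to Epgn, was not called for serum with either siRNA (0.15 and 0.19, adjusted p = 0.337 and 0.215). With Lap2 siRNA it was called lower in 0.3% FBS (-0.34, adjusted p = 0.0161) and in 15% FBS (-0.30, adjusted p = 0.0471). These calls were lost in 4 and in 5 of the 12 fits that left out a library.

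**Figure D5:**
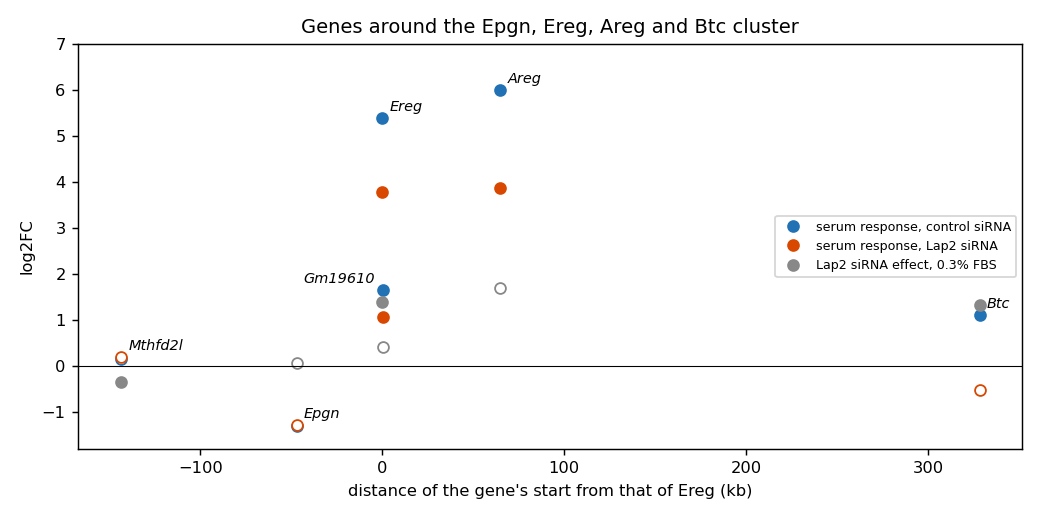
log2FC of the tested genes around the ligand cluster of chromosome 5 against the distance of their start from that of Ereg (kb), for serum with each siRNA and for Lap2 siRNA in 0.3% FBS. Filled points have an edgeR adjusted p under 0.05 and open points do not, the Epgn points for serum lie on each other, and Gm19619, which averaged 0.564 normalized counts, is left out. Ereg and Areg lie above 3.7 in both serum comparisons. Mthfd2l lies at 0.15 and 0.19 for serum, not called, and at -0.34 for Lap2 siRNA in 0.3% FBS, called lower.

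Profiles over the 12 libraries were compared by Pearson's r of log2 CPM, as a description, since the 12 points fall into 4 groups of 3 and share the serum step. Hbegf and Errfi1 had r = 0.9969, Hbegf and Ereg 0.9836, Ereg and Errfi1 0.9819, and Nrg1 0.7083 to 0.8217 with these 3, whereas Btc had -0.1598 to 0.4361 with the other members. Of 10449 candidate genes averaging 100 normalized counts or more, those most like Hbegf included Gadd45g (0.9993) and Maff (0.9978), and those most like Errfi1 were Nr4a1 (0.9999), Thbs1 (0.9998) and Nr4a3 (0.9988). Ereg was most like Mapkapk2 (0.9987), Dusp5 (0.9986) and Ptgs2 (0.9984). Nrg1 was most like Chsy1 (0.9891), S1pr3 (0.9856) and Fgfr2 (0.9841), and Btc, with lower values, most like Tinf2 (0.8901), Ankrd12 (0.8859) and Paxip1 (0.8851). The likeness is of shape and not of size. Mapkapk2 had a serum log2FC of 1.14 with control siRNA, against 5.39 for Ereg.

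A further feature of the transcripts is the ATTTA word of AU-rich elements, which mark many short-lived mRNAs. In the GENCODE M21 models, the longest annotated 3' untranslated region held 9 of these words in Ereg and Nrg1 and 4 in each of Hbegf, Areg, Tgfa, Btc and Errfi1. Of 13798 tested genes with such a region, 29.5% held at least 4. For Areg the region is 253 bp long, and 0.927% of genes with a region of like length (within 1.5 times) held as many words, while for the other 6 members that share was 25.5% to 73.1%.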

How the data were processed

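RNA-seq data of 12 NIH 3T3 libraries were used, grouped by the siRNA and serum given in the sample labels. The authors aligned the reads to mm10 with TopHat2 (in Chipster, default settings) and counted them per gene with HTSeq, and deposited counts without normalization. Tool versions, annotation release and strand setting are not given in the sources used here. Symbols were found for 99.3% of the 49671 gene identifiers, and positions, exon lengths and 3' untranslated regions came from the files and GENCODE M21.

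Genes counted more than 1 time in 3 libraries or more were tested in R 4.3.3 with edgeR 4.0.16 (limma 3.58.1): TMM factors, glmQLFit and glmQLFTest 1 coefficient for each of the 4 groups, and Benjamini-Hochberg adjustment over all 18668 genes at a threshold of 0.05. The steps were tested on simulated data. CPM per kb is TMM-scaled CPM divided by merged exon length, and log2 CPM used a prior count of 2. Alternatives were DESeq2 1.42.0, other scalings and filters, a replicate block, the compared groups alone, and each library left out. Tables and figures used Python 3.11.15, pandas 2.3.3, numpy 2.4.6 and matplotlib 3.10.9.

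Named genes were the members, Tmpo, the pathway lists, neighbours on the chromosome, and for members averaging 50 normalized counts or more the 3 genes with the highest r, of which 1 is not reported here. The members and lists were chosen with earlier results of these data known.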

Additional observations from a re-analysis of the deposited data

Results flagged for a closer look

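For 4 members the serum response differed between the siRNAs by a test of the difference itself (edgeR interaction, log2FC with Lap2 siRNA minus log2FC with control siRNA). It was -1.61 for Ereg, where serum gave 5.39 with control and 3.79 with Lap2 siRNA, higher in 6 of 6 serum-stimulated libraries than in any starved library. For Btc it was -1.62, with 1.11 and -0.51. For Nrg1 it was 0.51, with 0.50 and 1.00. For Errfi1 it was -0.76, with 6.77 and 6.01. The 4 adjusted p-values and the values in each library stand with the comparisons above.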

How the results depend on the processing

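Of the member log2FC values under the alternatives, 565 kept their direction and side of the threshold, 11 gained a call, 10 lost one and 2 reversed. The reversed values were both of Hbegf in 15% FBS, which was not called: 0.042 with scaling to total counts and 0.034 without the third serum-stimulated control library. The members called for Lap2 siRNA in 0.3% FBS numbered 3 in place of 5 with only the groups compared, since Hbegf and Errfi1 lost their calls. In 15% FBS they numbered 1 in place of 2 with scaling to total counts, and 1 to 2 with each library left out, since Ereg lost its call. The cause was not tested. Scaling to total counts shifted the median over the tested genes by log2 values of -0.21 and -0.23 for serum with control and Lap2 siRNA and of 0.11 for Lap2 siRNA in 0.3% FBS, and the upper quartile shifted it by -0.11 for serum with Lap2 siRNA. The genes called higher and lower for serum were 2915 and 2597 with control and 3420 and 2777 with Lap2 siRNA. They became 1632 and 5847, and 1658 and 5951, with total counts, and 2183 and 3878, and 2383 and 3942, with the upper quartile. For Lap2 siRNA total counts gave 4692 and 2638 in place of 3330 and 3480 in 0.3% FBS, and 3471 and 1678 in place of 2125 and 2250 in 15% FBS.

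The labels number the libraries 1 to 12 across the 4 groups and name no pairs. The numbers 1 to 3 used here are the order of the libraries within each group. Deviations of same-numbered libraries from their group means had correlations of -0.0337 to 0.0431 over 18 pairs, and 4 of 12 libraries correlated best with their own number, so the numbers were not taken to pair the samples. With the replicate block, the genes called numbered 5509, 6121, 6756, 4343 and 2553 in the order of the comparisons above, and the members called 6, 5, 5, 2 and 5, the added one being the Hbegf interaction (-0.48, adjusted p = 0.0496).

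Areg could not be tested with a count above 1 asked of every library, and DESeq2 gave its interaction no adjusted p. Depth limits what can be said of Areg, Tgfa and, in starved cells, Btc and Hbegf.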

Other observations

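On the linear scale, the gain with serum was 7288 normalized counts for Hbegf with control siRNA and 7036 with Lap2 siRNA, 5563 and 4527 for Ereg, and 38670 and 26934 for Errfi1. For Nrg1 it was 281 and 440, and for Btc it was 36.1 with control siRNA and -23.2, a loss, with Lap2 siRNA.

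The genes beside Hbegf and Errfi1 did not move with serum as they did. Pfdn1, next to Hbegf and a subunit of the prefoldin chaperone, averaged 632 and 619 normalized counts in starved and serum-stimulated control cells and 553 and 611 in Lap2-depleted cells, and was not called for serum (edgeR adjusted p = 0.85 and 0.231). Park7, next to Errfi1, averaged 1521 and 1442, and 1552 and 1705, and was not called for serum either (adjusted p = 0.512 and 0.179). Slc4a9, on the other side of Hbegf, was at or near 0 counts and was not tested.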
